A study of Mus musculus with 16 samples.

Results

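Wide fasting-enriched regions at the end of a single gene were 393 of the 8404 regions that the authors listed as enriched for beta-hydroxybutyrylated lysine 9 of histone H3 (H3K9bhb) in fasted mice. They were taken from chromosomes 1 to 19 as regions of 300 bp or more that overlap the 1 kb either side of an annotated end of exactly 1 protein-coding gene. Regions in dense runs, meaning 5 or more with gaps of at most 20 kb, were left out. The same rule without the width limit took 2039 regions, so 1646 narrower regions served as the comparison. The wide regions marked 390 of 20661 autosomal protein-coding genes (1.89%), and a region of any width marked 1891 (9.15%). The 390 genes were therefore 20.6% of the genes with any such region.

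Mice of the strain C57BL/6J were studied at postnatal day 35, after 48 h of fasting or with food ad libitum, and the tissue was occipital cortex. The labels describe 4 immunoprecipitated and 4 input libraries for each feeding state, from cortex homogenate, so all cell types of the tissue are mixed. Both feeding states share strain, age and tissue. The values here are the regions listed by the authors. Each carries one score, the logarithm of a likelihood ratio, called log-LR here. No value per library was used, so the depth is unknown and no spread between mice could be given. Only 1 region, of 232 bp at chr3:58665865-58666096, was listed as enriched in ad libitum mice. Since membership in the fasted list and the width come from the same contrast as the log-LR, these 3 are given as descriptions. The rule also used position, since it takes regions within 1 kb of a gene end, and it took protein-coding genes only. It did not use which end of the gene, the base composition or which gene, but regions are not replicates of the mice. Shares are therefore set side by side with 95% Wilson intervals, which cover counting error only, and no test was run over regions.

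Beta-hydroxybutyrate is the main ketone body that the liver releases during fasting and that the brain takes up as fuel. Its acyl group can be attached to histone lysines, and the mark on H3K9 lies on nucleosomes. At active promoters the start site itself is usually poor in nucleosomes, and the first positioned nucleosomes follow in the transcribed DNA. Promoters of widely used genes often lie in CpG islands, stretches in which the CpG dinucleotide has escaped the depletion seen elsewhere in the genome.

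Sequence before the start is shown for 4 of the wide regions that reach into it and, as a contrast, for 1 gene whose start is poor in CpG. Each run is the 250 bases before a RefSeq start in GRCm38.p6, which is mm10 with patches, written 5′ to 3′ on the gene's strand, with every CpG in capitals. The 4 are those with the highest log-LR whose listed start is also the annotated 5′ end of the gene and whose region covers some of these bases. The fifth, Pdzrn4, has the lowest CpG ratio among wide regions with such a start and was chosen after its value was seen.
Atp5g2, chr15:102671048-102671297, minus strand: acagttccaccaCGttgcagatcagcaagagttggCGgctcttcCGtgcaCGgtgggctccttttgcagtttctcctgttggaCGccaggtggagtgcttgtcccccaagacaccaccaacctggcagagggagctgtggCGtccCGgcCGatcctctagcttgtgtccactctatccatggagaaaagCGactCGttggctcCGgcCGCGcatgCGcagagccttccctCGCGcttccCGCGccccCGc
Sstr4, chr2:148395127-148395376, plus strand: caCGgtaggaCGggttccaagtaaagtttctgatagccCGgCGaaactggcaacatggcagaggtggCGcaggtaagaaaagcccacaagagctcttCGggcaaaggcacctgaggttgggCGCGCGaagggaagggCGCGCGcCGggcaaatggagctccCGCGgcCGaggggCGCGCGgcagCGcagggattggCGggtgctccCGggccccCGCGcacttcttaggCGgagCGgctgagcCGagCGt
Ppp1r9b, chr11:94990962-94991211, plus strand: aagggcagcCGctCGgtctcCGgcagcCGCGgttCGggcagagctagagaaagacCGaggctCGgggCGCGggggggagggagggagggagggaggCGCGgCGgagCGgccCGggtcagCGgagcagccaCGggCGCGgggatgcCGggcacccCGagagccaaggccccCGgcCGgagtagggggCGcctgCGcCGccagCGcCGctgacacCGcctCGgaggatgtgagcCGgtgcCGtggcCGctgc
Parvb, chr15:84231793-84232042, plus strand: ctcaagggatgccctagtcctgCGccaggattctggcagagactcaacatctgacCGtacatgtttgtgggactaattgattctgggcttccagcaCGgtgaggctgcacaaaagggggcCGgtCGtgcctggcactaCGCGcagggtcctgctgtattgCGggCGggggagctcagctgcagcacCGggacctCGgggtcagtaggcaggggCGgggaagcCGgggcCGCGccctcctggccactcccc
Pdzrn4, chr15:92396560-92396809, plus strand: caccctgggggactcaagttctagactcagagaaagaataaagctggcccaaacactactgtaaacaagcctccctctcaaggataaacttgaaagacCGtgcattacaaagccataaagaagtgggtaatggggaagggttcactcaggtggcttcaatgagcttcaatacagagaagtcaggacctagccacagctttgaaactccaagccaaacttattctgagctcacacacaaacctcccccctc
The run of Ppp1r9b, which encodes spinophilin, a phosphatase-targeting protein of dendritic spines, holds 33 CpGs, and its region (log-LR 7.33) covers 201 of the 250 bases. That of the somatostatin receptor gene Sstr4 holds 28, with 123 bases covered (log-LR 7.86). For Atp5g2, a subunit c gene of ATP synthase, it holds 19, with 9 bases covered (log-LR 7.91). For the focal adhesion gene Parvb it holds 15, with 165 bases covered (log-LR 7.08). The run of Pdzrn4 holds 1 CpG. Its region, with a log-LR of 4.58, begins 187 bp after the start and covers none of these bases.

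The wide regions lay at the starts of genes, not at their far ends. The strand was listed for the genes of 318 of the 393, and 311 of these (97.8%, interval 95.5 to 98.9) were at the gene start alone. A further 4 lay in short genes where both ends fall within reach, and 3 (0.943%, interval 0.321 to 2.74) were at the far end alone. Narrower regions were at the start in 1253 of 1303 (96.2%, interval 94.98 to 97.1) and at the far end alone in 40 (3.07%, interval 2.26 to 4.15). The intervals of both groups overlap for either share. The strand was not listed for the genes of the other 75 wide regions, which enter no count of position.

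Most wide regions lay wholly inside the transcribed DNA after the start. A start listed in RefSeq was found within 1 kb of 306 wide regions. Of these, 237 (77.5%, interval 72.4 to 81.8) lay entirely downstream of it, 48 (15.7%, interval 12.04 to 20.2) covered the start base and 21 (6.86%, interval 4.53 to 10.3) lay entirely upstream. Among 1230 narrower regions, 978 (79.5%) lay entirely downstream, 103 (8.37%, interval 6.95 to 10.1) covered the start base and 149 (12.1%, interval 10.4 to 14.1) lay upstream. A wider region can touch a given base from more positions, which bears on the share that covers the start. A listed start can lie inside the annotated gene, so a region upstream of it is not always outside the gene. The listed start was within 50 bases of the annotated 5′ end for 196 of the 306 wide regions (64.1%) and for 68.9% of the narrower. The centres of wide regions had a median of 322.5 bp after the start, with quartiles of 219 and 444.5 bp. For narrower regions the median was 264 bp, with quartiles of 135 and 422 bp. A wide region that begins after the start cannot be centred as close to it as a narrower one, so the edges are given as well.

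**Figure D1:**
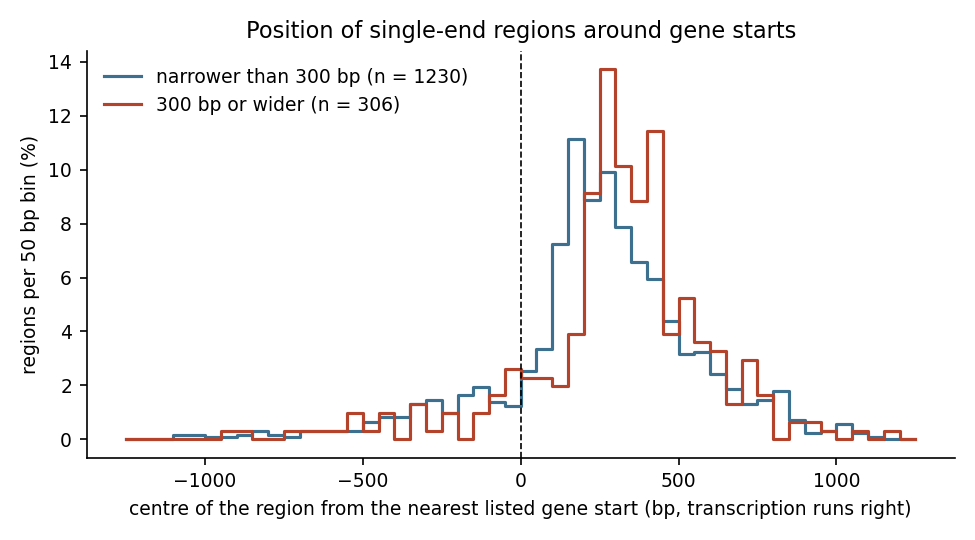
Position of single-end regions around the nearest listed gene start. The horizontal axis is the distance of the region's centre from the start in bp, with transcription running to the right, and the vertical axis is the percentage of regions in each 50 bp bin, for 306 wide and 1230 narrower regions. Both lines rise after the dashed start line, and the wide regions have 48.0% of their centres between 250 and 500 bp downstream.

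The extra width was found mainly on the downstream side. The upstream edge of wide regions had a median of 117.5 bp after the start (interval of the median 95 to 143) and that of narrower regions 162 bp (144 to 178). The downstream edge had a median of 517 bp (494 to 556) against 360 bp (345 to 376). Within the wide regions the same held by width. From 300 to below 350 bp the median edges were 131.5 and 451.5 bp (126 regions), and from 350 to below 400 bp they were 93.5 and 467.5 bp (68 regions). From 400 to below 500 bp they were 140 and 569 bp (70 regions), and at 500 bp or more 96 and 686.5 bp (42 regions). The near edge thus stayed between 93.5 and 140 bp across the 4 classes, with no order by width, while the far edge lay farther out in each wider class. Measured from the annotated 5′ end of the gene in place of the listed start, the centre had a median of 424 bp for 315 wide regions and 333 bp for 1263 narrower regions. The share with a centre downstream of that end was 94.9% and 90.02%.

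**Figure D2:**
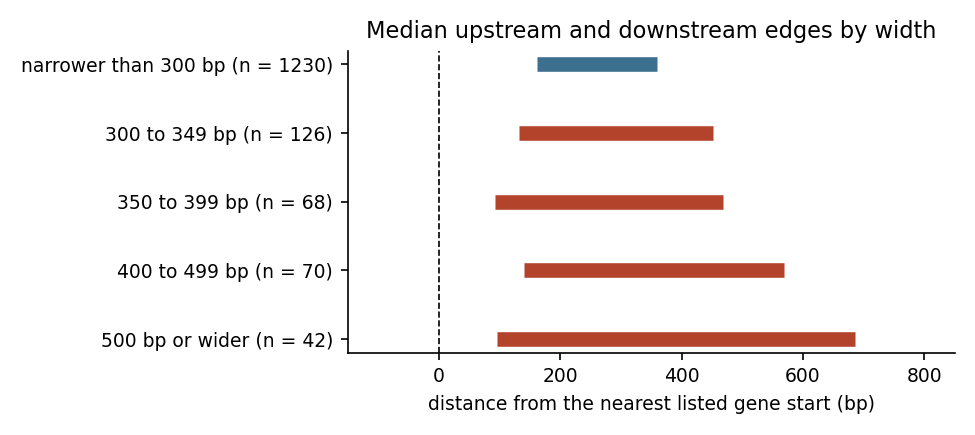
Median edges of single-end regions by width class. Each bar runs from the median upstream edge to the median downstream edge, in bp from the nearest listed gene start (dashed line), for narrower regions (blue) and 4 classes of wide regions (red). The left ends of the red bars lie between 93.5 and 140 bp and the right ends between 451.5 and 686.5 bp.

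The wide region with the highest log-LR, 11.8, was at chr4:141139209-141139540, at the start of Szrd1, which encodes a protein with an RNA-binding SUZ domain. It ran from 256 to 587 bp after the start. The next, at chr11:80089453-80089843 (log-LR 11.1), was at Atad5, whose product unloads the replication clamp from DNA, and ran from 53 to 443 bp. At the zinc finger gene Zfp422 the region at chr6:116628574-116628941 (10.6) ran from -240 to 127 bp and so covered the start. Of the 15 highest, 10 had a start within reach, and 7 of those 10 regions lay wholly after it.

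Other genes among the 15 encode proteins of several compartments. Dnajb2, a co-chaperone gene with a form enriched in neurons, had a log-LR of 9.95 (chr1:75236529-75236996, -173 to 294 bp). The nuclear pore gene Ranbp2 had 9.28 (chr10:58447144-58447460, 292 to 608 bp), and Sfpq, a splicing and paraspeckle protein gene, had 9.22 (chr4:127021610-127022059, 309 to 758 bp). These 3 regions had widths of 468, 317 and 450 bp. Ddi2, a protease gene that acts with the proteasome, had 9.22 (chr4:141722823-141723258). The neuronal gene Brinp1 had 9.21 (chr4:68953759-68954320), and Dusp8, a phosphatase gene for stress-activated MAP kinases, had 9.07 (chr7:142094699-142095042). All 3 began between 77 and 242 bp after the start. The strand was not listed for Gpcpd1 (10.2), Cyb561 (9.88), Popdc3 (9.50), Letm2 (9.30) and Slc48a1, a heme transporter gene (9.07).

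Tet2, which encodes an enzyme that oxidises methylcytosine, departed from the common placement. Its region of 570 bp (chr3:133544588-133545157, log-LR 9.63) lay from -767 to -198 bp of the only start listed, on the upstream side. That start lies inside the annotated gene, whose 5′ end falls within the region. The region therefore covers the 5′ end of the annotated gene while preceding its listed start.

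The 10 widest regions had log-LR values between 4.34 and 7.22. The widest of all, 1154 bp at chr13:55210290-55211443, was at Nsd1, a histone H3 lysine methyltransferase gene, with a log-LR of 5.64. Next were the small GTPase gene Rhob (957 bp, chr12:8498975-8499931, log-LR 7.22), the splicing-factor kinase gene Clk3 (948 bp, chr9:57764697-57765644, 5.42) and the proteoglycan gene Spock2 (872 bp, chr10:60106374-60107245, 5.16). Rhob and Spock2 began 78 and 117 bp after the start, while Clk3 ran from -530 to 417 bp and covered it. Ier5, an early response gene, had 752 bp (chr1:155098506-155099257, 5.61). Rab6b, a Golgi Rab gene of neurons, had 747 bp (chr9:103112103-103112849, 4.34), and the phosphatase gene Ctdsp2 742 bp (chr10:126978812-126979553, 6.46). Mef2d, an activity-regulated transcription factor gene, had 727 bp (chr3:88142547-88143273, 4.56). Zfyve9, an adaptor gene of TGF-beta signalling, had 691 bp (chr4:108779969-108780659, 5.35), and the synaptic adhesion gene Tenm2 689 bp (chr11:37236289-37236977, 6.90). None of these 10 was among the 15 of highest log-LR. Across the 393, width and log-LR had a Pearson r of 0.0738 and a Spearman rho of 0.0735. Among the 1646 narrower regions the values were 0.0708 and 0.199, and over the 2039 regions of either width 0.105 and 0.276. All are descriptions over regions from 1 list.

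**Figure D3:**
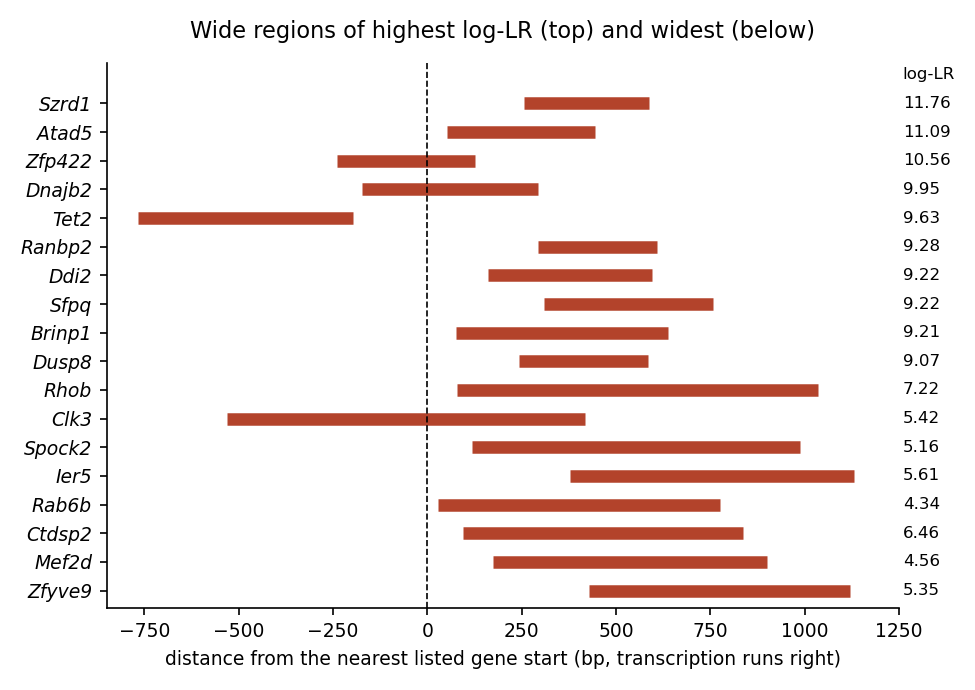
Wide regions of highest log-LR (upper 10) and widest regions (lower 8), drawn to scale in bp from the nearest listed gene start, for those of the 15 and 10 named that have a start within 1 kb. Each bar is a region, the dashed line is the start and the number at the right is the authors' log-LR. Zfp422, Dnajb2 and Clk3 cover the start, Tet2 precedes it, and the others lie after it.

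At 3 genes there were 2 wide regions. Rtn4, the gene of the neurite growth inhibitor Nogo, had regions at chr11:29693169-29693475 (log-LR 6.75) and chr11:29693545-29693925 (5.09), parted by 69 bp. It has 3 listed starts, and the 2 regions lay 271 to 577 bp after and -229 to 151 bp around their nearest start. Fndc3a had regions of 301 and 332 bp (5.33 and 4.74), 428 bp apart. The 2 regions counted for H2-DMa, an antigen-processing gene, overlapped the annotated span of Brd2, a reader of acetylated histones, and no listed start of H2-DMa was within 1 kb of either. Their log-LR was 7.85 and 5.64, and Brd2 had a wide region of its own (8.30). In all, 11 of the 393 regions (2.80%) overlapped a protein-coding gene other than the gene whose end they met, and 375 (95.4%) overlapped that gene itself.

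The 3 wide regions at a far end were at Clca3b (log-LR 6.64), Nmi (5.27) and Gm40469 (3.96). The 4 in short genes were at Pcbp1, a poly(C)-binding protein gene (6.42), LOC115488350 (4.95), Exosc6 of the RNA exosome (4.80) and Bmyc (4.31). The region of LOC115488350 also overlaps the span of the thyroid hormone receptor gene Thrb. These 7 were named after their values were seen.

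The start sequences of genes with wide regions were rich in CpG. Over the 300 bases from 250 before to 50 after the start, the ratio of observed to expected CpG had a median of 0.854 for 306 wide regions (interval 0.827 to 0.877). It was 0.841 for 1230 narrower regions (0.828 to 0.851) and 0.548 for 14949 autosomal protein-coding genes with no single-end region (0.536 to 0.560). A ratio of 0.6 or more is a usual mark of a CpG island. It was found in 269 of 306 wide regions (87.9%), in 87.0% of narrower regions and in 46.5% of genes with no single-end region. GC content had a median of 66.3%, 65.7% and 55.7% in the same order. Wide and narrower regions thus had overlapping intervals, and both stood above the genes with no single-end region. Those genes can still hold regions of other classes, such as regions inside genes or shared by gene ends. They were taken whether or not they are used in cortex, and expression was not measured. The difference in CpG is thus not read as a trait of the mark. Among wide regions the ratio ran from 0.0482 at Chst1, a sulfotransferase gene, to 1.35 at Sap18. The region of Chst1 lay from -1077 to -735 bp and was also centred farthest upstream, although within the annotated gene, since the only listed start lies 1485 bp inside it. At the far side, the region of the glucocorticoid-responsive factor gene Klf9 was centred farthest downstream, at 1178 bp. The CpG ratio had a Spearman rho of -0.0523 with log-LR and -0.0736 with width across the 306, again a description over regions of 1 list.

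**Figure D4:**
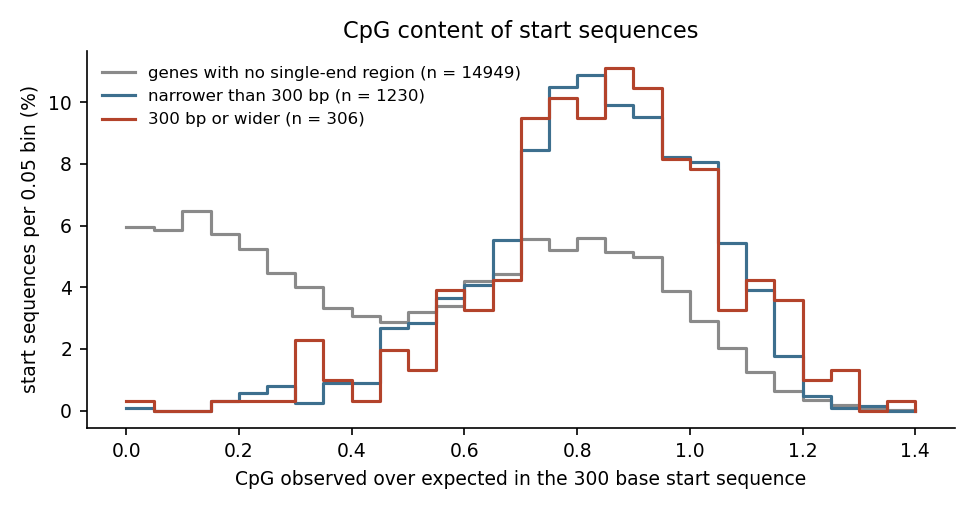
CpG content of start sequences. The horizontal axis is the ratio of observed to expected CpG in the 300 bases around the start, and the vertical axis is the percentage of start sequences per bin of 0.05. Wide (red, n = 306) and narrower (blue, n = 1230) regions peak together near their medians of 0.854 and 0.841, while genes with no single-end region (grey, n = 14949) are spread down to 0.

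Short motifs were counted on both strands in the same 300 bases, once per gene. The GC box GGGCGG was found in 231 of 305 genes with a wide region (75.7%), 77.1% of 1129 genes with narrower regions only and 47.3% of all 16456 autosomal protein-coding genes with a listed start. The TATA box letters TATAAA were found in 6.23%, 5.05% and 13.5%, and CCAAT in 29.2%, 34.0% and 39.1%. Letters of rarer sites gave small counts. The cAMP response element TGACGTCA was in 13 genes with a wide region (4.26%, against 2.92% and 2.40%), and the palindrome bound by NRF1 also in 13 (4.26%, against 2.21% and 1.37%). The intervals of these 2 shares, 2.51 to 7.15, overlap those of narrower regions, 2.09 to 4.08 and 1.504 to 3.25. The ETS core CCGGAAG was in 11.8%, 14.3% and 12.3%, the E-box CACGTG in 11.1%, 10.1% and 7.97%, and the AP-1 letters TGANTCA in 2.95%, 2.83% and 7.12%. None of these letter strings contains another, although neighbouring matches can overlap. All but the TATA box, CCAAT box and AP-1 letters hold a CpG, so their shares move with base composition. A match is a description of the letters only.

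Genes were grouped by 22 pathway lists, written with earlier results of these data known. The lists are not complete, so each count is for the list and not for the whole gene class. Of 932 genes in the lists, 45 (4.83%, interval 3.63 to 6.40) had a wide region, beside the 1.89% of all genes, and 210 (22.5%) had a region of any width, beside 9.15%. In 17 of the 22 lists the share with a wide region was above 1.89%, and in 3 it was 0. The background holds every annotated gene, whether or not it is used in cortex, and expression was not measured here, so nothing particular to a list is read from these shares.

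Of the 22 lists, that of histone and DNA methylation and remodelling enzymes had the highest share, with a wide region at 6 of 46 genes (13.0%), and these were 42.9% of the 14 with any region, beside 20.6% over all genes. Besides Tet2 and Nsd1 they were Setd5, a SET-domain gene (log-LR 7.96), Arid1b, a subunit gene of the BAF remodelling complex (5.84, 656 bp), the ISWI remodeller gene Smarca5 (4.99) and the histone demethylase gene Kdm7a (4.63). The regions of Arid1b, Smarca5 and Kdm7a lay wholly after the start, from 116, 582 and 380 bp on. That of Setd5 lay outside the gene, centred at -831 bp from its annotated 5′ end, with an end of a long non-coding RNA gene within 1 kb. Among 34 genes that write, erase or read histone acylation, 2 (5.88%) had a wide region, beside 1.89% of all genes. They were Brd2 and the deacetylase gene Hdac2 (3.81, 27 to 403 bp after the start). A region of any width was found at 9 of the 34 (26.5%), beside 9.15% of all genes.

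Synaptic genes had a wide region in 5 of 45 (11.1%), and 13 had any. Grin1, which encodes the obligatory NMDA receptor subunit, had the highest log-LR, 8.47, in a region from 116 to 447 bp after the start (chr2:25318740-25319071). Syt1, the calcium sensor of vesicle release, had 6.45 (chr10:109010517-109010886), with a start sequence low in CpG, at a ratio of 0.332. Vamp2, a vesicle fusion protein gene, had 4.46, and the postsynaptic scaffold gene Homer1 had 4.42. Of 43 voltage-gated channel genes, 2 (4.65%) had a wide region, beside 1.89% of all genes. They were the presynaptic calcium channel gene Cacna1b (5.82) and the potassium channel gene Kcnd3 (4.09). Both of these regions began more than 500 bp after the start, at 608 and 570 bp. The BDNF and plasticity list had 2 of 26 (7.69%), Rtn4 and Mef2d.

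Protein turnover and trafficking were covered by 3 lists. Ubiquitin and proteasome genes had a wide region in 7 of 84 (8.33%), and 28 had any. The ubiquitin-conjugating enzyme gene Ube2d2a (log-LR 6.67), the F-box gene Fbxo11 (6.41), the proteasome lid gene Psmd6 (6.09) and the deubiquitinase gene Usp1 (5.96) led. Ube3a, the ubiquitin ligase gene of Angelman syndrome, had a region of 518 bp from 358 to 875 bp after its nearest start (4.02). Rab, Vps and sorting nexin genes had 3 of 76, all of them Rab genes: Rab5a of early endosomes (7.62), the synaptic vesicle gene Rab3a (6.18) and Rab6b. Of the whole list, 3.95% had a wide region, beside 1.89% of all genes, and 19 genes (25%) had a region of any width, beside 9.15%. Vps and sorting nexin genes were not counted apart, so the lack of a wide one among them is not read as a low share. The heat shock and ER stress list had 2 of 38 (5.26%), Dnajb6 (7.1998) and Hsp90ab1 (5.62, 574 bp). The co-chaperone gene Dnajb2 (9.95), named above, has a wide region but is not in this list.

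Signalling and transcription lists each held 1 to 3 wide members. The shares were 6.82% for MAP kinase and dual-specificity phosphatase genes, 4.76% for the Wnt list and 8% for the glucocorticoid and FOXO list. They were 4.35% for immediate early genes, 2.94% for insulin, mTOR and autophagy genes, 2.17% for nuclear receptor genes and 4.17% for clock genes. Each share was above the 1.89% of all genes, on counts too small to read more from it. The MAP kinase and dual-specificity phosphatase list had 3 of 44, Dusp8, the kinase gene Map2k1 (log-LR 5.69) and Dusp6 (4.68). Mapk4 (7.12) and Map3k20 (6.28) also have wide regions but are not in this list. The Wnt list had 2 of 42, the kinase gene Gsk3b (6.39) and its scaffold partner Apc (4.85). The glucocorticoid and FOXO list had 2 of 25, Klf9 (6.98) and the growth arrest gene Gadd45a (6.59). Immediate early genes had 9 of 23 with any region but only Ier5 with a wide one, and insulin, mTOR and autophagy genes had 13 of 34 with any but only Tsc1 (5.86) wide. That is 11.1% and 7.69% of their marked genes, beside 20.6% over all genes, on counts of 1 each. Nuclear receptor and coregulator genes had 1 of 46, the corepressor gene Nrip1 (6.04), and clock genes 1 of 24, the kinase gene Csnk1d (5.25).

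RNA and metabolic lists held at most 2 wide members each. The splicing and RNA-binding protein list had any region in 19 of 63 (30.2%) and a wide one in 2 (3.17%), Pcbp1 and Hnrnpab (log-LR 4.89). The splicing gene Sfpq (9.22), named above, has a wide region but is not in this list, so 2 is not a count for the class. Cytosolic ribosomal protein genes had 12 of 73 with any and 1 wide, Rpl10a (5.79). Oxidative phosphorylation genes had 11 of 71 with any and 1 wide, Atp5g2. These last 2 lists have wide shares of 1.37% and 1.41% on 1 gene each, near the 1.89% of all genes, and shares with any region of 16.4% and 15.5%, beside 9.15%. Of 10 ketone body genes, 2 (20%) had any region and 1 (10%) a wide one, beside 9.15% and 1.89% of all genes. The wide one was at Oxct1, the enzyme gene that starts ketone body use in brain mitochondria (4.88, 525 to 852 bp after the start). None of 27 fatty acid oxidation genes and none of 23 glycolysis genes had a wide region. A narrower one was found at 3 (11.1%) and 4 (17.4%), beside 9.15% of all genes with any region. With 1.89% of all genes marked by a wide region, these lists are too short for 0 to be read as a low share. None of 50 developmental homeobox genes had a region of either kind.

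Markers of cell types were without wide regions. None of 86 marker genes of excitatory and inhibitory neurons, astrocytes, oligodendrocytes, microglia, vessels, and of liver, blood and muscle had a wide region, which allows a share of up to 4.28% by the upper Wilson bound. That bound lies above the 1.89% of all genes, so a difference was not detectable with this many genes. Of the same 86, 5 (5.81%) had a narrower region, beside 9.15% of all genes with any region, and the difference was not tested. A list of regions gives no level of a marker, so the labelled tissue was not checked further.

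**Figure D5:**
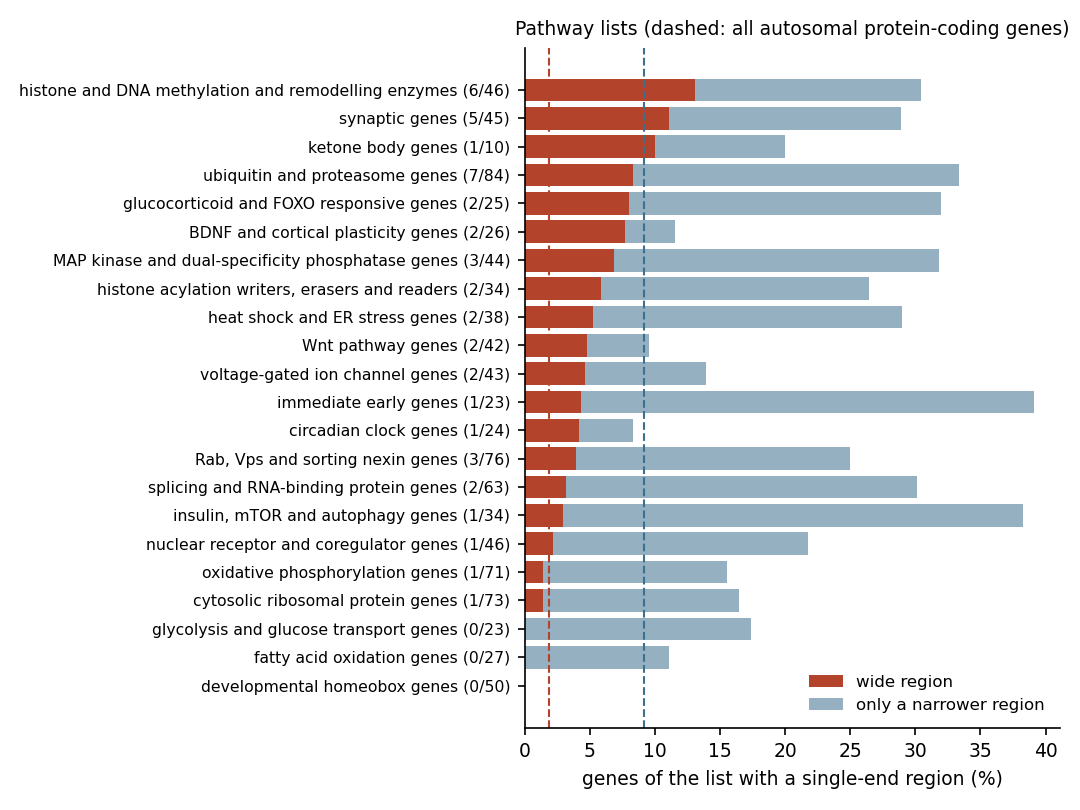
Share of the genes of each pathway list with a wide single-end region (red) or only a narrower region (blue), in percent of the annotated autosomal genes of the list. Counts in brackets give genes with a wide region over all genes, and dashed lines mark 1.89% (wide) and 9.15% (any) over all autosomal protein-coding genes. Bars of methylation and remodelling enzymes and of synaptic genes have the longest red parts, and the bar of developmental homeobox genes is empty.

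The log-LR of wide regions had a median of 5.50, with quartiles of 4.75 and 6.40 and a range of 3.44 to 11.8. Narrower regions had a median of 4.75, quartiles of 4.05 and 5.79 and a range of 3.14 to 88.1. Of the narrower, 11 exceeded the highest wide value, led by a region of 140 bp past the far end of Wls (88.1). Width had a median of 376 bp among the wide regions, and 53 of them were 500 bp or wider. At the limit itself, the narrowest wide regions, of 300 bp, were at Jdp2 (log-LR 5.04), Zfp597 (4.53) and Rgs7 (3.44). Just outside, at 299 bp, were Spry2 (5.48), Uxs1 (5.10) and Phlda3 (4.16). From 290 to 299 bp there were 49 regions, whose log-LR had a median of 5.38, and from 300 to 309 bp there were 37, with 5.002.

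Since the rule left out dense runs, the distance to other regions is partly set by it. Another fasting-enriched region lay within 1 kb of 54 of the 393 (13.7%, interval 10.7 to 17.5) and of 256 of the narrower regions (15.6%, 13.9 to 17.4). Of the 390 genes, 40 also had a narrower region at an end. An end of a long non-coding RNA gene lay within 1 kb of 17.8% of wide and 15.2% of narrower regions, with overlapping intervals of 14.3 to 21.9 and 13.6 to 17.1. The genes at wide regions had a median length of 35614 bp (interval 29988 to 42823) and those at narrower regions 31997 bp (30222 to 34958), beside 17491 bp over all autosomal protein-coding genes.

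The wide share at single gene ends was close to that of other isolated regions. It was 19.3% at single ends (interval 17.6 to 21.0), 17.8% at the ends of 2 or more genes (14.2 to 22.2), 18.7% inside genes (17.0 to 20.5) and 21.7% elsewhere on the autosomes (20.3 to 23.2). In dense runs, which were left out of the 393, 310 of 706 regions (43.9%) were 300 bp or wider. Over the whole fasted list the share was 22.1%. Width of 300 bp or more was thus not particular to gene ends.

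By chromosome, genes with a wide region were 0.837% of the genes of chromosome 7 at the lowest and 2.80% of those of chromosome 10 at the highest. The wide share of single-end regions ran from 12.6% on chromosome 13 to 31.8% on chromosome 17, where 27 of 85 were wide. Of these 27, 3 lay at or within Brd2.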

How the data were processed

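Chromatin of occipital cortex was immunoprecipitated for H3K9bhb and sequenced, with input, in 16 libraries. Per the submitters' processing notes, the tools include Bowtie2 and MACS2 and the build is mm10; no versions or roles are stated there. Per the file headers, each deposited region list gives chromosome, start, end, name and a log-LR score. No source used here states the log base, the cutoff, the depth scaling or any pooling, so it is unknown how far depth or library differences shaped which regions were listed. Starts were read as counted from 0 and are printed from 1.

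Regions were joined to gene ends, strands and start sequences of RefSeq GRCm38.p6 with Python 3.11.15, pandas 2.3.3, numpy 2.4.6 and scipy 1.17.1, and drawn with matplotlib 3.10.9. The table held 49993 genes with coordinates, and 16456 of 20661 autosomal protein-coding genes had a listed start. Where a gene had several starts, the nearest to the region was used. For the CpG ratio of genes with no single-end region it was the start nearest the annotated 5′ end. Intervals of shares are 95% Wilson intervals and those of medians come from binomial order statistics. Motifs were counted on both strands. The join was tested on simulated regions. Named genes were the 15 highest by log-LR, the 10 widest, those at the width limit, genes with 2 regions and up to 4 wide members of each list by log-LR. Smarca5, Kdm7a, Homer1, Ube3a, Mapk4, Map3k20, Chst1, Sap18 and Wls were named after their values were seen, as were others where the text says so. Some named members are not reported here. Start sequences were planned for the 6 highest regions that overlap one. The limit to starts at the annotated 5′ end and to covered bases before the start was added later. The members and lists were chosen with earlier results of these data known. Alternatives covered width, window, overlap, runs, merging, log-LR and genes with 1 start.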

Additional observations from a re-analysis of the deposited data

Results flagged for a closer look

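Inside dense runs on chromosomes 1 to 19, which the rule leaves out, 25 of 54 regions at single gene ends (46.3%) were 300 bp or wider. Their median log-LR was 7.74 and their median width 584 bp, and the highest log-LR, 13.9, was at Duxf3. These regions are outside the 393 and enter the text above only within the count of all regions in dense runs. Most of the 25 lie close together, at neighbouring genes with Gm symbols on chromosomes 6 and 8 and at Duxf3 and LOC100504180 on chromosome 10. The share and medians thus rest on few places of the genome. They are given here as regions that the rule sets aside, and the difference from the other regions was not tested. On chromosomes X and Y, outside runs, 0 of 6 and 0 of 7 single-end regions were that wide.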

How the results depend on the processing

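Of 44 alternative values, 34 moved by less than their interval or less than 1.5-fold for counts, and 10 moved by more. The values are counts, shares and medians without a sign, so a reversal was not possible. The number of wide regions was 672 with a limit of 250 bp and 146 with 400 bp, and the wide share 33.0% and 7.16%. The wide share was 26.6% with regions within 1 kb merged first and 27.3% with a log-LR of at least 5. The median log-LR was 5.62 with the 400 bp limit and 6.10 with a log-LR of at least 5. The share at the gene start was 99.3% with a window of 500 bp and 90.6% with 3 kb. The number of lists with a wide share above all genes, 17, was 12 with the 400 bp limit. It was 13 with the 500 bp window and 18 with a log-LR of at least 5. Each alternative changes which regions are counted. A moved width limit sets the wide count and share, merging can only widen regions, and a floor on log-LR can only raise its median. The reasons for the other moves were not tested. Genes with 1 listed start only were an alternative added after seeing the data. No paired analysis was possible because each region has a single score for all mice, and leaving out a replicate was not run for the same reason. Depth is unknown, so a gene without a region cannot be called unmarked.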

Other observations

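Further gene families were grouped by symbol after their values had been seen, so their counts support nothing by themselves. Serine/threonine phosphatase subunit genes (symbols Ppp or Ppm) had a wide region in 7 of 88 (7.95%), beside 1.89% of all genes. Besides Ppp1r9b they included 2 catalytic subunit genes of calcineurin, a calcium-dependent phosphatase abundant in neurons, Ppp3cb (log-LR 5.61) and Ppp3ca (5.27), and the myosin phosphatase subunit gene Ppp1r12a (7.05). Kinesin motor genes had 4 of 37 (10.8%), and 6 had any region. The 4 were Kif1b (8.68), Kif2a (5.17), Kif21b (4.27) and Kif16b (4.24). Translation initiation factor genes had 4 of 53 (7.55%), Eif4g1 (6.83), Eif3a (6.66), Eif4a3 (6.11) and Eif1 (5.32). Reticulon genes had 2 of 4, Rtn4 and Rtn3.

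Zinc finger genes with Zfp symbols had 9 of 388 (2.32%) and solute carrier genes 6 of 362 (1.66%), both near the 1.89% of all genes. None of 1104 olfactory receptor genes had a wide region, and 5 (0.453%) had a narrower one, beside 9.15% of all genes with any region.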
